A study of Mus musculus with 12 samples.

Results

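Gzmk, the gene of granzyme K (ENSMUSG00000042385), was 1 of 32285 genes counted in single T cells sorted from the brains of mice with transgenes for amyloid, tau, both or neither. The gene was taken by its symbol and followed across CD8, CD4 and γδ T cells, across clone sizes and across 6 pools of mice, and its detection was set against that of Gzma and Gzmb in the same CD8 T cells. All mice were 9-month-old females, littermates matched for strain, from PS19 mice (B6C3F1/J) crossed with 5XFAD mice (C57BL6 congenic). The 5XFAD pools (5XFAD-1 from 4 mice, 5XFAD-2 from 3) carried the hemizygous 5XFAD transgenes, which include mutant human APP and are driven by the Thy1 promoter in neurons. PS-5X (4 mice) carried those transgenes together with the hemizygous PS19 transgene, which is mutant human MAPT under the mouse prion protein promoter. PS19 (4 mice) carried that tau transgene alone, and the WT pools (WT-1 from 10 mice, WT-2 from 8) carried neither. The amyloid pools are therefore 5XFAD-1, 5XFAD-2 and PS-5X, and the pools without amyloid are WT-1, WT-2 and PS19. Each pool is 1 sample of several mice, so p-values for amyloid and tau measure the spread between pools. Where cells of the same pool are compared, p-values measure how much that difference varies from pool to pool. PS-5X and PS19 were read in 1 pool each. The labels place 5XFAD-2 and WT-2 in a separate sequencing run, and the remaining 4 pools shared one run, called the common run here.

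Granzymes are serine proteases that cytotoxic lymphocytes store in granules. Granzyme B cuts after aspartate and drives apoptosis of target cells together with perforin, whereas granzymes A and K have trypsin-like specificity and cut after arginine or lysine. Gzmk transcripts mark effector memory CD8 T cells that accumulate in aged and inflamed tissues, and secreted granzyme K has been reported to cleave complement proteins outside cells.

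In GRCm38, Gzmk lay on the minus strand of chromosome 13 (chr13:113171630-113180965), and Gzma lay beside it on the same strand (chr13:113093824-113100981). The gap between them was 70.648 kb, with the start of 1 other gene in it. Gzmb lay on chromosome 14 (chr14:56258836-56262334). The promoter windows of Gzmk and Gzma are shown because these neighbours were most often detected in different CD8 clusters. Any part of the promoter letters in that was not tested. Each window runs from 250 bases before the gene's start to 50 after it (RefSeq, GRCm38.p6, minus strand), and capitals mark GTGTGA or its reverse complement TCACAC, the core letters that T-box factors such as Eomes and T-bet can bind.
Gzmk promoter, chr13:113180916-113181215: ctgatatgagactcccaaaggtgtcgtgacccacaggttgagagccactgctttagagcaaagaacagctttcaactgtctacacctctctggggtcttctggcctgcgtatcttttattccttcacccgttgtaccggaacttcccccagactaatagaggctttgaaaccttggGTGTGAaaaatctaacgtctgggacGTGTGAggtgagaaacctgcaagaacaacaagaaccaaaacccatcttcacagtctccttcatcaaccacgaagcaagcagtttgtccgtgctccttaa
Gzma promoter, chr13:113100932-113101231: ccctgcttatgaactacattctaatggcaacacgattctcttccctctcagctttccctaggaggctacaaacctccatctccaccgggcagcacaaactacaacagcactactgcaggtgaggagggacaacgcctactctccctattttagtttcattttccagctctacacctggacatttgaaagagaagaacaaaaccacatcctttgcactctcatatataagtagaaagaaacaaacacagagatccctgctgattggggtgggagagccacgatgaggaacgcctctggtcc
The Gzmk window held 2 matches, the Gzmb window (chr14:56262285-56262584) held 1 and the Gzma window held none. Of 32851 windows of this length, 4760 (14.5%) held at least 1 match on either strand and 454 (1.38%) held at least 2. These matches describe letters in the windows, not bound sites.

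After filters on genes per cell, mitochondrial share and doublets, 17373 cells remained, 829 (WT-1) to 5894 (PS-5X) per pool, and the pools held 5883210 to 38616794 UMIs (counted RNA molecules) before these filters. Clusters were named by marker genes, with the granzymes and receptor segments kept out of the clustering genes. CD8 T cells were 9 clusters with 11347 cells, of which 2 clusters with 1961 cells carried naive-like markers, and the other 9386 cells are called non-naive. CD4 T cells were 3 clusters with 3219 cells, γδ T cells 1 cluster with 885 cells, and 1922 cells (11.1%) stayed unnamed. Libraries of the common run shared receptors: of cells with both receptor chains, 30.5% in 5XFAD-1, 4.18% in PS-5X, 30.9% in WT-1 and 10.1% in PS19 had a receptor identical in both chains to one of another pool, against none in 5XFAD-2 or WT-2, and 20 to 89 cell barcodes per pool also occurred in another pool. The amyloid results in CD8 T cells are therefore also given without the shared cells of WT-1. The shared cells of 5XFAD-1, PS-5X and PS19 were kept there, so only 1 pool without amyloid was changed. Its Gzmk level in non-naive CD8 T cells went from 375 to 303 CPM, which widens the amyloid difference.

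Gzmk was a gene of CD8 T cells in these brains. Of 29784 Gzmk UMIs in kept cells, CD8 T cells held 25982 (87.2%) and were 65.3% of the cells. CD4 T cells held 620 UMIs (2.08%) at 18.5% of the cells, and γδ T cells held 23 (0.0772%) at 5.09% of the cells. Naive-like CD8 T cells held 18 UMIs, so nearly all Gzmk of the CD8 T cells was in the non-naive clusters. Outside the named classes, a cycling cluster (Mki67, Top2a) held 1618 UMIs in 330 cells, and a Cd4 cluster led by Gzma and Gzmb held 969 in 104 cells.

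In CD8 T cells, Gzmk was at 458 CPM (UMIs of the gene per 1000000 UMIs of the sum) in 5XFAD-1, 375 in 5XFAD-2, 379 in PS-5X, with 317 for WT-1, 254 for WT-2 and 228 for PS19. In CD4 T cells the same pools had 39.2, 41.6, 34.9, 28.9, 28.8 and 32.5 CPM. In γδ T cells they had 4.18, 1.81, 1.23, 3.56, 12.0 and 0 CPM. For the classes as named, every pool thus had its CD8 level far above its CD4 level, and its CD4 level above its γδ level. The CD4 class leaves out the Cd4 cluster led by Gzma and Gzmb, with 969 Gzmk UMIs and 90 of its 104 cells in 5XFAD-1. The class comparison was not repeated with that cluster added. The means over the 6 pools were 335 ± 86.0 CPM in CD8, 34.3 ± 5.29 CPM in CD4 and 3.80 ± 4.31 CPM in γδ T cells (SD, n = 6). By edgeR's quasi-likelihood test with pool as block and Benjamini-Hochberg adjustment, CD8 exceeded CD4 T cells by 3.32 ± 0.11 on the log2 scale (adjusted p = 8.5e-16), in a comparison that called 31.3% of 10747 genes. CD8 exceeded γδ T cells by 6.62 ± 0.21 (adjusted p = 3.7e-17, 52% of genes called), and CD4 exceeded γδ T cells by 3.31 ± 0.32 (adjusted p = 8.9e-09, 48.9% called), both by the same edgeR test. With classes drawn from UMIs of the marker genes in place of clusters, the CD8 excess over CD4 T cells was 1.37 by edgeR.

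Cells differed in depth, so shares of cells were compared at 2000 UMIs per cell. Free RNA can also put UMIs into cells that do not express a gene, and this thinning does not remove it. At that depth 47.6% of non-naive CD8 T cells held a Gzmk UMI (4387 of 9217, with 169 shallower cells left out), against 4.95% of CD4 T cells, 0.688% of γδ T cells (6 of 872) and 0.259% of naive-like CD8 T cells (5 of 1929). Without thinning the shares were 67%, 9.44%, 1.58% and 0.816%, at median depths of 6211, 5313, 6398 and 6730 UMIs. The γδ and naive-like shares give the level that background can reach, and γδ values are read as no more than that. A Gzmk-positive non-naive CD8 T cell held 4.13 UMIs on average before thinning, 3.55 to 4.65 by pool. After thinning, 1.49% to 3.75% of non-naive CD8 T cells held 5 or more Gzmk UMIs, and no cell held more than 12.

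**Figure D1:**
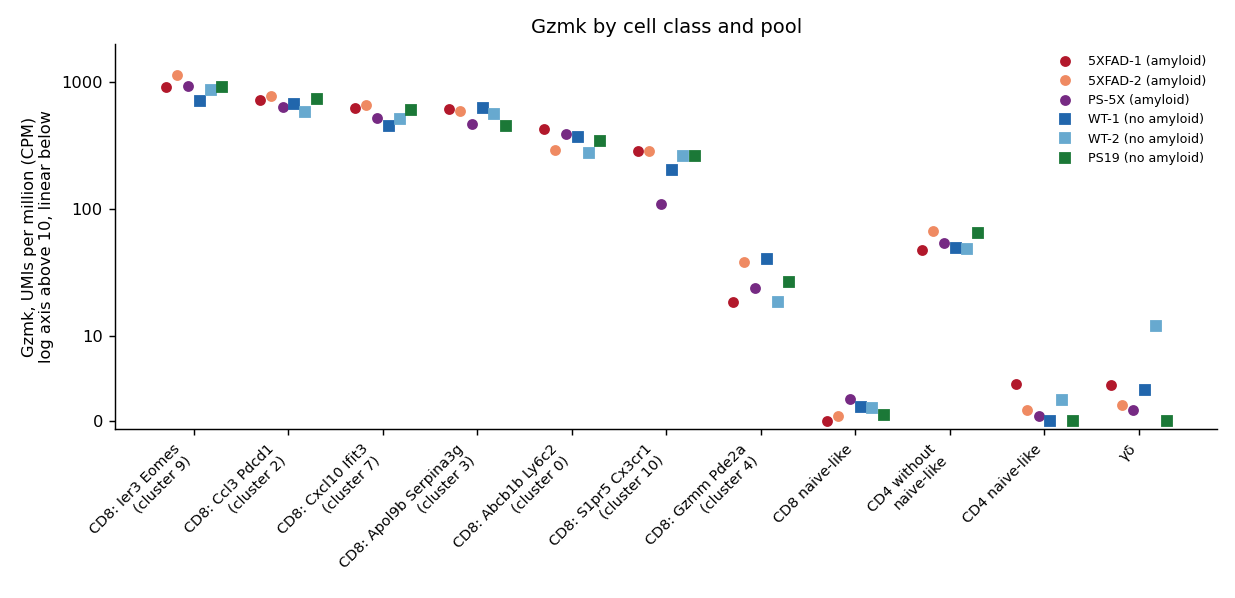
Gzmk level in CPM (log axis above 10, linear below) in each cell class, with 1 point per pool (circles, pools with amyloid; squares, pools without). The Ier3/Eomes CD8 cluster lies highest (712 to 1136 CPM), the S1pr5/Cx3cr1 and Gzmm/Pde2a clusters lower, and naive-like CD8 and γδ T cells near 0.

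The plot of Gzmk by class and pool shows a graded order among the CD8 clusters. Gzmk was highest in the Ier3/Eomes cluster, at 909 CPM in 5XFAD-1, 1136 in 5XFAD-2, 935 in PS-5X, with 712 for WT-1, 863 for WT-2 and 920 for PS19 (mean 913 ± 137, SD, n = 6). Eomes encodes a T-box factor of memory and effector CD8 T cells, and Gzmk itself was among this cluster's leading genes. The Ccl3/Pdcd1 cluster, whose leading genes also include Lag3 and Tox, averaged 690 ± 70.6 CPM and lay below the Ier3/Eomes cluster in 6 of 6 pools, although the ranges of these neighbours overlapped. The Cxcl10/Ifit3 cluster, led by interferon-stimulated genes, averaged 562 ± 79.9 CPM. The Apol9b/Serpina3g cluster, which also carried heat shock genes, averaged 553 ± 76.4 CPM and did not differ from the Cxcl10/Ifit3 cluster beyond their spread, with 4 of 6 pools lower. The Abcb1b/Ly6c2 cluster averaged 350 ± 57.3 CPM, with no overlap with the Apol9b/Serpina3g cluster.

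The S1pr5/Cx3cr1 cluster, whose leading genes mark circulating effector cells and include Gzma and Gzmb, averaged 235 ± 68.8 CPM (109 to 287). The Gzmm/Pde2a cluster, led by the granzyme gene Gzmm, averaged 27.7 ± 9.44 CPM, below the 59.7 ± 11.9 CPM of the main CD4 cluster in 6 of 6 pools. Below these came the Foxp3 CD4 cluster with 21.2 ± 30.1 CPM, γδ T cells, naive-like CD4 T cells with 1.42 CPM and naive-like CD8 T cells with 1.15 ± 0.934 CPM, whose ranges overlapped from one to the next. These orders describe clusters and carry no test.

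In the amyloid comparison, Gzmk was higher in CD8 T cells of every amyloid pool than of any pool without amyloid, and whether the call passed adjustment depended on the fit. Across CD8 T cells the amyloid pools averaged 404 ± 46.9 CPM and the pools without amyloid 266 ± 45.5 CPM (SD, n = 3 each). Among non-naive CD8 T cells Gzmk in 5XFAD-1 was at 494 CPM, 5XFAD-2 had 457 and PS-5X 437, against 375 CPM for WT-1, 341 for WT-2 and 322 for PS19. The groups did not overlap, also with WT-1 at 303 CPM without its shared cells, with means of 462 ± 28.8 CPM and 346 ± 27.1 CPM. Within the common run, 5XFAD-1 was 1.31 times WT-1 and PS-5X was 1.36 times PS19, and within the separate run 5XFAD-2 was 1.34 times WT-2.

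The edgeR fit with amyloid and tau as terms gave a log2 amyloid effect on Gzmk of 0.43 ± 0.08 in non-naive CD8 T cells (unadjusted p = 0.000317, adjusted p = 0.132). In CD8 T cells as a whole it was 0.61 ± 0.10 (unadjusted p = 0.000267, adjusted p = 0.131, edgeR). edgeR called 0 of 11351 genes (0%) in non-naive and 0 of 11656 (0%) in CD8 T cells, while 1049 and 1226 genes had an unadjusted p under 0.05 and DESeq2 called 70 and 80. With the sequencing run as a replicate block, edgeR called Gzmk in both, at 0.43 (adjusted p = 0.0374, 57 genes called) and 0.60 (adjusted p = 0.00485, 218 genes called). DESeq2 without the block gave 0.44 (adjusted p = 0.000112) in non-naive CD8 T cells. Without the WT-1 cells that shared a receptor with another pool, edgeR gave 0.52 (adjusted p = 0.0454) in non-naive and 0.73 (adjusted p = 0.0181) in CD8 T cells. In those fits the shared cells of 5XFAD-1, PS-5X and PS19 were kept. edgeR without the block also called Gzmk with WT-1 left out in non-naive (0.46, adjusted p = 0.0370) and with 5XFAD-2 left out in CD8 T cells (0.70, adjusted p = 0.0183).

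The share of positive cells moved the same way. At 2000 UMIs per cell, a Gzmk UMI was held by 54.6% of the non-naive CD8 T cells of 5XFAD-1, 50.9% of those of 5XFAD-2 and 49.4% of those of PS-5X, against 42.6% for WT-1, 40.4% for WT-2 and 41.8% for PS19. Every amyloid pool was above every pool without amyloid, by 9.99 percentage points between the means of 51.6 ± 2.65% and 41.6 ± 1.13% (SD, n = 3 each; two-sided exact permutation p = 0.1, the lowest that 3 against 3 pools can give). The difference was 9.73 points in the common run for 5XFAD-1 against WT-1, 7.54 points for PS-5X against PS19 and 10.5 points in the separate run. Unthinned, the shares were 75.3%, 69.3% and 70.6% in the amyloid pools and 66.7%, 55.6% and 59.0% in WT-1, WT-2 and PS19. In CD8 T cells as a whole the thinned shares averaged 45.3 ± 5.23% and 32.1 ± 3.30%, 13.2 points apart (two-sided exact permutation p = 0.1). Without its shared cells WT-1 had 35.0% of non-naive and 26.8% of all CD8 T cells positive, and the differences were 12.5 and 16.2 points (exact permutation p = 0.1 each).

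**Figure D2:**
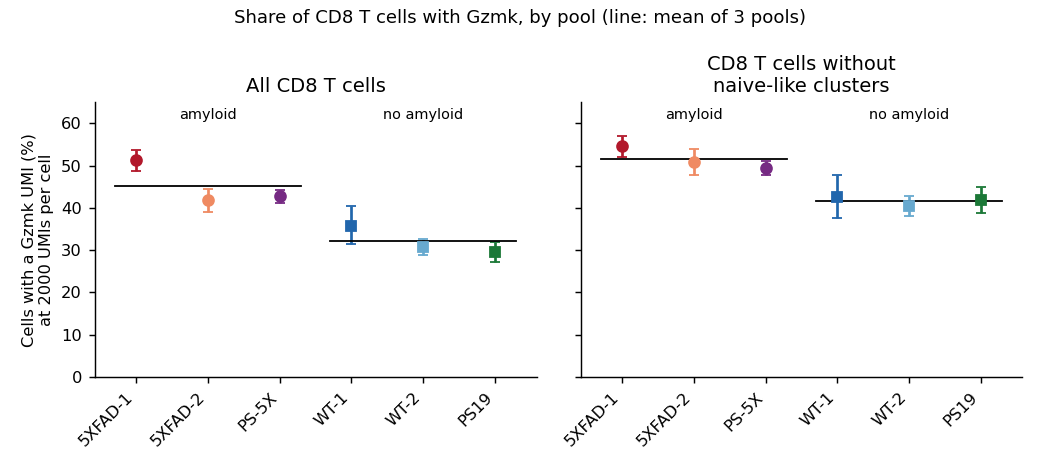
Percentage of cells with a Gzmk UMI at 2000 UMIs per cell, in CD8 T cells (left) and non-naive CD8 T cells (right), by pool. Bars are Clopper-Pearson 95% intervals for counting error and lines are means of 3 pools (51.6% and 41.6% on the right), with the amyloid pools above the others.

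Within single CD8 clusters the groups overlapped. In the Ccl3/Pdcd1 cluster, Gzmk was at 719, 779 and 638 CPM in the amyloid pools (5XFAD-1, 5XFAD-2, PS-5X), against 676, 587 and 741 CPM in WT-1, WT-2 and PS19. In the Ier3/Eomes cluster the amyloid pools had 909, 1136 and 935 CPM and the others 712, 863 and 920 CPM. Overlap was found in 7 of 7 non-naive clusters, and the amyloid mean was the higher in 5 of them. When the cluster makeup was set to be the same in every pool, the amyloid pools had 496, 501 and 428 CPM and WT-1, WT-2 and PS19 had 438, 414 and 453 CPM. That left means of 475 ± 40.8 and 435 ± 20.02 CPM (SD, n = 3 each), a log2 difference of 0.13 (two-sided exact permutation p = 0.3), beside 0.42 as measured.

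Several clusters differed in size between the same pools. The S1pr5/Cx3cr1 cluster, low in Gzmk, was 4.69%, 4.99% and 3.29% of non-naive CD8 T cells in the amyloid pools, in the same order, against 8.52%, 22.8% and 11% in WT-1, WT-2 and PS19. The Apol9b/Serpina3g cluster was 19.9%, 22.5% and 16.9% in the amyloid pools and 15.3%, 10.9% and 11.5% in the others. Naive-like cells were 5.89%, 18.0% and 13.6% of CD8 T cells in the amyloid pools, overlapping the 16%, 23.8% and 29.3% in WT-1, WT-2 and PS19. Without the Gzmm/Pde2a cluster, the edgeR effect on Gzmk in non-naive CD8 T cells was 0.30 (adjusted p = 0.245), and in clones of 1 cell it was 0.32 (adjusted p = 0.70).

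Marker lists of other cells and states were summed in the same non-naive sums, and their part in the Gzmk difference was not tested. Interferon-stimulated genes summed to 401 to 801 CPM in the amyloid pools and 182 to 331 CPM in the others. The circulating effector list summed to 182 to 321 CPM against 360 to 1197 CPM, 6 NK cell genes to 17.9 to 36.2 CPM against 46.1 to 58.3 CPM, and 6 γδ T cell genes to 129 to 155 CPM against 94.5 to 111 CPM. The 8 microglia and macrophage genes summed to 127 to 137 CPM in the amyloid pools and 116 to 141 CPM in the others, and Aqp4 and Cldn5 of the brain parenchyma list were at 0 in every pool.

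In the tau comparison Gzmk did not pass. edgeR gave a log2 tau effect of -0.10 ± 0.08 in non-naive CD8 T cells (adjusted p = 0.843) and -0.18 ± 0.11 in CD8 T cells (adjusted p = 0.804). edgeR called 0% of genes in each, with 742 and 752 genes at an unadjusted p under 0.05, and DESeq2 called 22 and 27. PS-5X was 0.885 times 5XFAD-1 and PS19 was 0.858 times WT-1 in non-naive CD8 T cells. With all cells kept, tau pools were thus the lower in both pairs of the common run. Without its shared cells WT-1 was at 303 CPM, below the 322 CPM of PS19, so that pair then went the other way. The shared cells of PS19 were kept there.

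In CD4 T cells Gzmk was low, and its amyloid difference did not pass. The amyloid pools averaged 38.6 ± 3.39 CPM and the others 30.1 ± 2.06 CPM (SD, n = 3 each) without overlap, and edgeR gave 0.32 ± 0.14 (unadjusted p = 0.05, adjusted p = 0.781), in a fit that called 0.0201% of 9962 genes. Without naive-like CD4 T cells the amyloid pools had 47.9, 67.4 and 53.6 CPM and WT-1, WT-2 and PS19 had 49.0, 48.3 and 64.9 CPM, which overlapped. In γδ T cells Gzmk did not reach the filter on low counts and was not tested, in a fit that called 0.0921% of 8690 genes. PS19 had a Gzmk UMI in 0 of 79 thinned γδ T cells, which at this depth allows a share of cells with a UMI of up to 3.80% (3 counts) and does not limit the share of cells that express Gzmk.

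Apart from these classes stood a small Cd4 cluster led by Gzma, Gzmb and Havcr2 (the inhibitory receptor TIM-3), with 104 cells. It had Cd4 UMIs in 82.7% and Cd8b1 UMIs in 22.1% of its cells and was left unnamed. Gzmk was at 1160 CPM in the sum of its cells, 1182 CPM in those of 5XFAD-1, with a UMI in 97.1% of its cells (84.6% at 2000 UMIs) and 9.59 UMIs per positive cell. 5XFAD-1 held 90 of its cells, 5XFAD-2 3, PS-5X 1, WT-1 9, WT-2 1 and PS19 0. Of the 84 cells of 5XFAD-1 with a clone, 42 were of 1 clone and 77 had a receptor also read in another pool. Adding it to the CD4 class made the edgeR amyloid effect 1.04 (adjusted p = 0.90).

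Gzmk was higher in CD8 T cells of expanded clones, here clones read in 2 or more cells of a pool. Among non-naive CD8 T cells, expanded clones had 621, 715, 543, 553, 486 and 554 CPM in 5XFAD-1, 5XFAD-2, PS-5X, WT-1, WT-2 and PS19. Clones of 1 cell had 404, 305, 332, 339, 265 and 247 CPM in the same pools. Expanded clones were the higher in 6 of 6 pools, by 1.54 to 2.35 times, with means of 579 ± 79.2 CPM against 315 ± 56.6 CPM (SD, n = 6) and no overlap. edgeR with pool as block gave 0.77 ± 0.06 (adjusted p = 5.5e-10), in a comparison that called 23.1% of genes. At 2000 UMIs per cell, 59.0 ± 5.58% of expanded and 39.0 ± 4.61% of single-cell-clone T cells held a Gzmk UMI (SD, n = 6). Expanded cells were the shallower, with median depths of 4241 to 6014 UMIs against 6202 to 8405.

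Across CD8 T cells with the naive-like clusters kept, the expansion effect was 1.17 ± 0.09 (edgeR, adjusted p = 4.5e-09, 31.6% of genes called). Leaving the Gzmm/Pde2a cluster out of the non-naive cells reduced the effect to 0.26 (adjusted p = 0.000161), and classes drawn from marker UMIs gave 0.27, both by edgeR. Amyloid did not detectably change the expansion effect, with an edgeR interaction of -0.07 ± 0.12 (adjusted p = 0.976, 0.0569% of genes called).

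**Figure D3:**
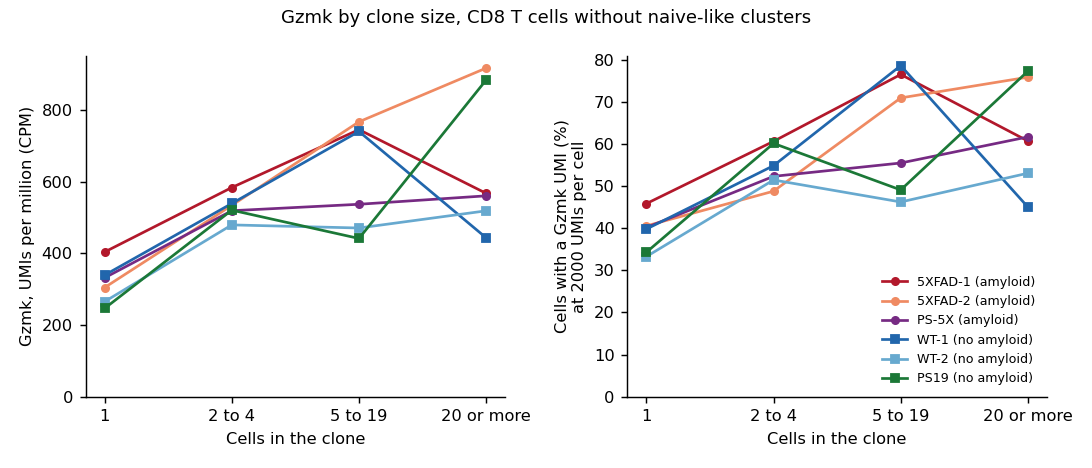
Gzmk in non-naive CD8 T cells by the number of cells in the clone, in CPM (left) and as the percentage of cells with a Gzmk UMI at 2000 UMIs per cell (right), with 1 line per pool. Each pool is lowest in clones of 1 cell (247 to 404 CPM on the left), and the pools spread from 443 to 917 CPM in clones of 20 or more cells. The WT-1 point there (443 CPM) is 1 clone with a receptor also read in another pool.

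By clone size, the step was between 1 cell and 2 to 4 cells, and larger clones scattered, as the plot by clone size shows. Clones of 1 cell averaged 315 ± 56.6 CPM, clones of 2 to 4 cells 529 ± 33.9 CPM, clones of 5 to 19 cells 617 ± 150 CPM and clones of 20 or more 648 ± 200 CPM (SD, n = 6). Against clones of 1 cell, edgeR gave 0.67 ± 0.11 for 2 to 4 cells (adjusted p = 8.8e-05, 6.16% of genes called). For 5 to 19 cells it gave 0.81 ± 0.11 (adjusted p = 2.2e-06, 11.9% called), and for 20 or more 0.90 ± 0.11 (adjusted p = 1.7e-07, 21.5% called). Without the Gzmm/Pde2a cluster the edgeR effects were 0.18, 0.29 and 0.38, and the last alone passed (adjusted p = 0.0137). With classes from marker UMIs they were 0.17, 0.35 and 0.37, and none passed (edgeR adjusted p = 1.00, 0.296 and 0.0879). Clones of 20 or more cells had 568, 917 and 561 CPM in 5XFAD-1, 5XFAD-2 and PS-5X and 443, 519 and 884 CPM in WT-1, WT-2 and PS19, from 1 clone in WT-1 to 19 in PS-5X. The WT-2 value includes a 42.1% share of the S1pr5/Cx3cr1 cluster, which held 0% to 1.54% of these cells in the other pools. The 1 clone behind the WT-1 value (20 cells) had a receptor also read in another pool. Its receptor beta chain was the same as that of a 5XFAD-1 clone of 153 cells, so the WT-1 value may not be independent of 5XFAD-1. The Ccl3/Pdcd1 cluster was 35.6% to 71.0% of cells in clones of 20 or more and 4.79% to 9.32% of cells in clones of 1.

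In CD4 T cells with the naive-like cells kept, expanded clones had 60.3, 28.8, 61.9, 47.0 and 88.2 CPM in 5XFAD-1, 5XFAD-2, PS-5X, WT-2 and PS19, and clones of 1 cell had 31.3, 28.5, 26.1, 24.4 and 27.4 CPM. Expanded clones were the higher in 5 of 5 pools, hardly so in 5XFAD-2, with 5 to 60 Gzmk UMIs behind each value, and WT-1 had too few cells. edgeR gave 1.00 ± 0.18 (adjusted p = 0.000447, 12.1% of genes called). Without naive-like CD4 T cells this did not hold. Expanded clones then had 61.4, 29.5, 63.8, 48.4 and 91.8 CPM in the same pools and clones of 1 cell 39.9, 50.7, 46.2, 44.99 and 60.6 CPM, so 5XFAD-2 went the other way, and edgeR gave 0.33 ± 0.17 (adjusted p = 0.405).

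Single large clones covered nearly the whole range of Gzmk. Among 32 clones with 20 or more thinned non-naive CD8 T cells (1526 cells), the share of cells with a Gzmk UMI ran from 4.55% to 100%, with a median of 62.7%. It was 80% or more in 8 clones and under 20% in 3. Among the 24 clones with no receptor shared between pools the range was the same. The largest, of PS-5X, held Gzmk in 71.6% of its cells (66.5 to 76.4, Clopper-Pearson 95% interval for counting error), and a clone of 5XFAD-2 held it in 100% (83.2 to 100). A clone of PS-5X held it in 4.55% (0.1 to 22.8). The 19 clones whose most frequent cluster was the Ccl3/Pdcd1 cluster had shares of 24.1% to 100%. For the 5XFAD-2 clone at 100%, that cluster held 40% of the cells.

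Among 4 large clones, the S1pr5/Cx3cr1 cluster was the most frequent, with 40% of the cells in 1 of PS-5X. Of these clones, 1 of WT-2 held Gzmk in 7.14% (1.5 to 19.5) of its cells, Gzma in 88.1% and Gzmb in 81.0%. Another clone of WT-2 with 80% of its cells in that cluster held Gzmk in 95%, Gzma in 95% and Gzmb in 85%. Clones with much Gzma therefore included some with little Gzmk and 1 with much of both.

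**Figure D4:**
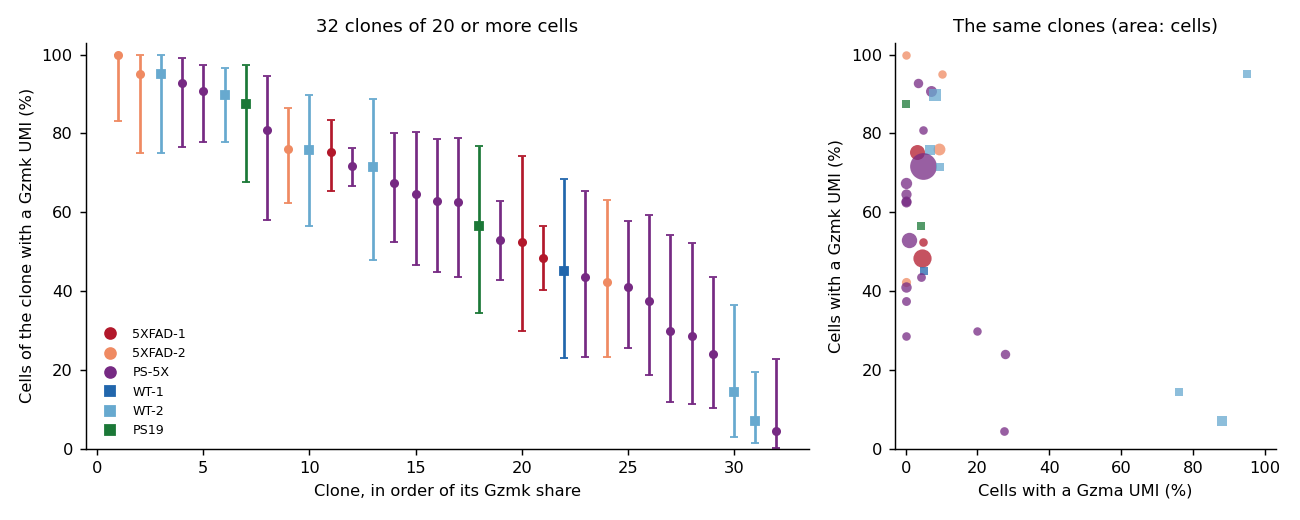
Left, percentage of cells with a Gzmk UMI at 2000 UMIs per cell in each of 32 large clones of non-naive CD8 T cells, in order of the share, coloured by pool, with Clopper-Pearson 95% intervals; the shares run from 100% to 4.55%. Right, the same shares against the percentage of cells with a Gzma UMI, with point area by the number of cells; most clones lie at low Gzma, and 3 of WT-2 lie above 70% Gzma.

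One group of clones with a shared receptor motif was high in Gzmk. It was chosen after its values were seen and is a description with no test. These clones used TRBV19 with a CDR3β of 33 bases that differed by at most 4 bases from that of a WT-2 clone, and a pair of its largest members is shown with the bases that differ from that clone in capitals.
PS-5X clonotype16: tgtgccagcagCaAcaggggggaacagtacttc
WT-2 clonotype8: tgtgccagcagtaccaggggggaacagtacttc
Gzmk was found in 92.9% of 28 thinned cells of the PS-5X clone and 89.8% of 49 of the WT-2 clone. Over all 6 clones of the group, from 3 pools, it was found in 94 of 109 cells (86.2%). Other TRBV19 cells held it in 374 of 717 (52.2%) and cells with other beta V genes in 3569 of 7551 (47.3%).

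Most Gzmk-positive non-naive CD8 T cells held neither Gzma nor Gzmb at this depth. Most Gzmk-negative ones also held neither, so this is not a trait of Gzmk-positive cells. Of 9217 thinned non-naive CD8 T cells, 36.6% held Gzmk alone, 5.61% Gzmb alone and 1.64% Gzma alone. Gzmk stood with Gzmb in 6.51%, with Gzma in 2.01% and with both in 2.46%, while 2.77% held Gzma and Gzmb without Gzmk and 42.4% held no UMI of the 3. Of Gzmk-positive cells, 77.6%, 81.7% and 77.8% held Gzmk alone in the amyloid pools (5XFAD-1, 5XFAD-2, PS-5X), against 79.8%, 69.9% and 76.2% in WT-1, WT-2 and PS19. By cluster, Gzmk alone was found in 65.2% of Ier3/Eomes cells, 51.7% of Ccl3/Pdcd1 cells and 4.27% of S1pr5/Cx3cr1 cells. In the S1pr5/Cx3cr1 cluster 26.3% held Gzma and Gzmb without Gzmk and 15.4% held all 3.

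Whether the granzymes occurred in the same cells was measured per pool as a log2 odds ratio of joint detection. Gzma was found in 9.92% of Gzmk-positive against 6.10% of Gzmk-negative cells in 5XFAD-1, 5.57% against 3.72% in 5XFAD-2 and 6.36% against 5.00% in PS-5X. For WT-1 it was 7.74% against 7.96%, for WT-2 18.3% against 20.5% and for PS19 11.6% against 4.97%. The log2 odds ratios of Gzmk with Gzma were 0.75, 0.59 and 0.37 in the amyloid pools and -0.03, -0.20 and 1.32 in WT-1, WT-2 and PS19 (mean 0.466 ± 0.552, SD, n = 6; exact sign-flip permutation test, two-sided, p = 0.125, adjusted over 3 pairs 0.125). Positive and negative values both occurred, so no shared direction was found.

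Gzmb was found in 17.3% of Gzmk-positive against 12.8% of Gzmk-negative cells in 5XFAD-1, 15.6% against 10.2% in 5XFAD-2 and 18.7% against 17.0% in PS-5X. For WT-1 the shares were 16.7% against 12.4%, for WT-2 24.9% against 25.2% and for PS19 18.0% against 8.01%. The log2 odds ratio of Gzmk with Gzmb averaged 0.529 ± 0.471 (SD, n = 6) and was above 0 in 5 of 6 pools (exact sign-flip permutation test, two-sided, p = 0.0625, adjusted 0.0938). Gzma with Gzmb, by comparison, averaged 2.92 ± 0.693 and was above 0 in 6 of 6 pools (same exact test, p = 0.031, the smallest that 6 pools allow, adjusted 0.0938).

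The odds ratio of Gzma with Gzmb exceeded that of Gzmk with Gzma by 2.45 ± 0.93 and that of Gzmk with Gzmb by 2.39 ± 0.90 on the log2 scale (SD, n = 6), each in 6 of 6 pools (exact sign-flip permutation test, two-sided, p = 0.031, adjusted over 3 differences 0.0469). The direction of the Gzmk pairs depended on which clusters were counted. Without the S1pr5/Cx3cr1 cluster, Gzmk with Gzma was 1.13 (exact p = 0.031) and Gzmk with Gzmb was 0.796 (exact p = 0.031). Without the Gzmm/Pde2a cluster they were -0.04 (exact p = 0.906) and -0.05 (exact p = 0.75). Depth moved them too. Gzmk with Gzma was 0.064 at 1000 UMIs per cell (exact p = 0.813) and 0.882 at 4000, above 0 in 5 of 6 pools (exact p = 0.0625). For Gzmk with Gzmb the values were 0.207 at 1000 UMIs and 0.973 at 4000, above 0 in 6 of 6 pools at each depth (exact p = 0.031 each, unadjusted). Counting cells with 2 or more UMIs gave 0.462 for that pair (exact p = 0.125).

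Gzmk-detected non-naive CD8 T cells held more Eomes, Tox, Pdcd1 and Ccl3 and less Ccr7 and Il7r than undetected ones. Each pool gave 1 sum of detected cells (168 in WT-1 to 1699 in PS-5X) and 1 of undetected cells (226 to 1741), thinned to 2000 UMIs, and some undetected cells will have held Gzmk below this depth. edgeR with pool as block called 552 genes higher (6.09%) and 675 lower (7.45%) of 9059 (13.5% in all), with 2168 at an unadjusted p under 0.05. Genes named here are among the largest changes that went the same way in 6 of 6 pools at a mean of 50 CPM or more.

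Eomes was at 294, 322, 272, 292, 333 and 280 CPM in detected cells of 5XFAD-1, 5XFAD-2, PS-5X, WT-1, WT-2 and PS19. In undetected cells it was at 144, 132, 124, 162, 121 and 131 CPM, below every detected value, and edgeR gave 1.10 ± 0.06 (adjusted p = 3.1e-25). Pdcd1, which encodes the inhibitory receptor PD-1, was at 383, 576, 437, 336, 413 and 337 CPM in detected cells, against 235, 221, 207, 204, 174 and 161 CPM in undetected cells, and these also did not overlap. Tox, the factor of exhausted T cells, averaged 202 ± 17.3 CPM against 83 ± 13.7 CPM (SD, n = 6; log2 1.19 ± 0.07). Ier3, an early response gene, had the largest rise at 95.4 against 24.8 CPM (1.87 ± 0.12), although 5XFAD-2 with 231 CPM was far above the other detected sums.

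Among the other rises were the chemokine Ccl3 (211 against 71.6 CPM, log2 1.5), the inhibitory receptors Lag3 (79.9 against 32.5 CPM, 1.27) and Tigit (236 against 102 CPM, 1.16), and the chemokine receptor Ccr2 (1.10). Nr4a2, a nuclear receptor induced by antigen receptor signals, rose by 1.03. Among the largest falls, Ccr7, a chemokine receptor of naive and central memory T cells, was at 60.4 CPM in detected and 296 CPM in undetected cells (-2.22). Satb1 (-1.56), S1pr1, the receptor for egress into blood (-1.26), and Il7r, the IL-7 receptor (-1.10), fell as well. All passed in edgeR with adjusted p under 0.05.

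Leaving out the Gzmm/Pde2a cluster cut the calls to 177 higher and 239 lower. The 10 largest rises all still passed there (Eomes 1.16, Tox 0.92, Pdcd1 0.55), but 4 of the 10 largest falls did, and Ccr7 was then at -0.30.

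By gene list, 15 of 16 genes of a Gzmk-positive CD8 signature tested rose and Ly6c2 fell by 1.01, a list chosen with results of these data known, at a median of 0.73 on the log2 scale beside 0.01 for all genes. Of 10 inhibitory receptor genes 6 rose (Lag3, Tigit, Havcr2, Pdcd1, Entpd1 and Ctla4) and Btla fell by 0.76, at a median of 0.82. Of 10 tested circulating effector genes 8 fell and Gzmb rose by 0.27, at a median of -0.69. All 15 tested naive and central memory genes fell, at a median of -1.56.

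Of 18 transcription factors, 8 rose and 5 fell. Prdm1 (Blimp-1) rose by 0.83 and Batf by 0.66, and Klf2, Lef1, Tcf7, Zeb2 and Tbx21 (T-bet) fell by 1.04, 0.89, 0.86, 0.75 and 0.19. Residency genes rose in 8 of 11, while Itgae, the CD103 integrin, fell by 0.44. Among 12 granule genes, Prf1 (perforin) rose by 0.31, Nkg7 by 0.43 and Rab27a by 0.56, and Lyst fell by 0.34. Of 10 chemokine and cytokine genes, 7 rose, among them Ccl4 by 0.97 and Ifng by 0.36, and Il2 fell by 0.81. Of 5 serpins, the protease inhibitors Serpina3g (0.56) and Serpinb6a (0.37) rose. Of 9 other granzymes 3 were tested: Gzmb rose, Gzmm fell by 1.53 and Gzma, at 0.15, did not pass.

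**Figure D5:**
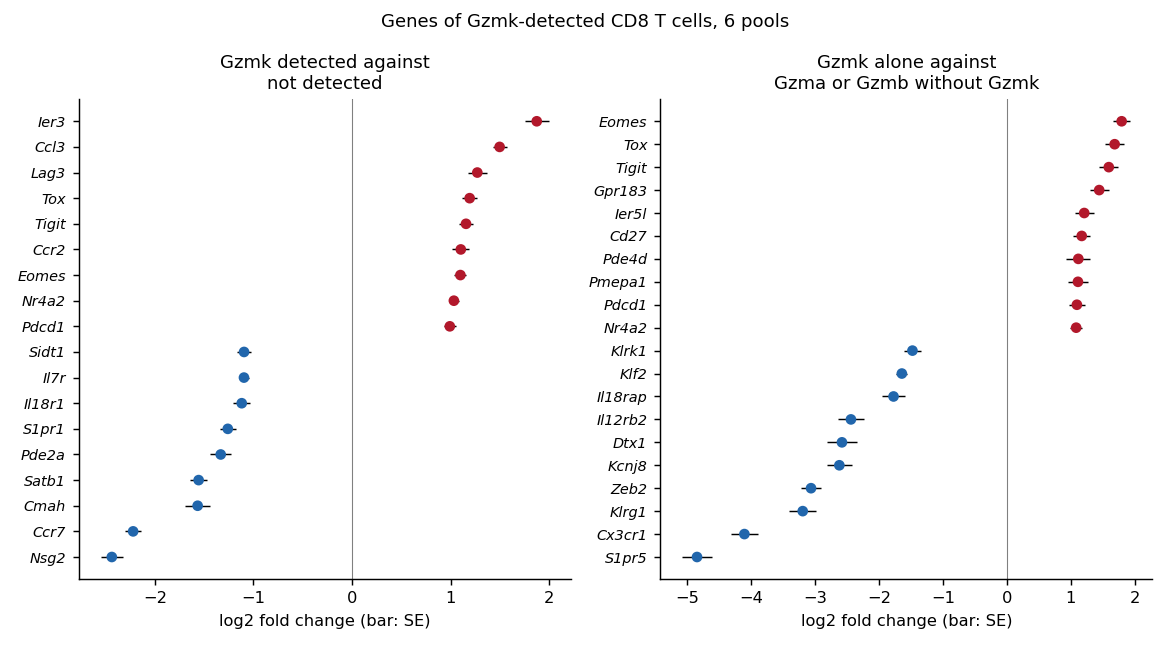
Log2 fold changes (points) with standard errors (bars) from edgeR over 6 pools for genes among the 10 largest rises (red) and 10 largest falls (blue) in Gzmk-detected against undetected non-naive CD8 T cells (left) and in cells with Gzmk alone against cells with Gzma or Gzmb without Gzmk (right). Eomes, Tox, Tigit, Pdcd1 and Nr4a2 are among the rises on both sides, and S1pr5 has the largest fall on the right, at -4.85.

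Set against cells with Gzma or Gzmb but no Gzmk, cells with Gzmk alone again had more Eomes, Tox, Tigit and Pdcd1, and far less of the genes of circulating effector cells, as the plot of named genes shows. Each pool gave 134 (WT-1) to 1322 (PS-5X) cells with Gzmk alone and 41 (WT-1) to 329 (PS-5X) with Gzma or Gzmb alone. edgeR called 236 genes higher (3.03%) and 219 lower (2.81%) of 7782 (5.85% in all), with 1163 at an unadjusted p under 0.05, and 287 genes in all without WT-2. Eomes was at 302, 327, 282, 310, 376 and 294 CPM in cells with Gzmk alone of 5XFAD-1, 5XFAD-2, PS-5X, WT-1, WT-2 and PS19. In cells with Gzma or Gzmb alone it was at 82.6, 130, 91.2, 195, 77.7 and 90.9 CPM, with no overlap, and edgeR gave 1.79 ± 0.13. Cx3cr1, the fractalkine receptor, was at 9.35, 8.79, 3.78, 0, 14.6 and 7.31 CPM in cells with Gzmk alone, against 73.4, 94.2, 72.9, 110, 316 and 288 CPM in the others, and edgeR gave -4.11 ± 0.21.

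Further rises included Gpr183, a receptor for oxysterols (298 against 127 CPM, log2 1.44), and Cd27, a costimulatory receptor (238 against 117 CPM, 1.17). Further falls were S1pr5 (4.95 against 141 CPM, -4.85), the receptor Klrg1 (12.4 against 135 CPM, -3.20), the factor Zeb2 (27.2 against 259 CPM, -3.07) and Klf2 (542 against 1877 CPM, -1.64). All 8 tested circulating effector genes fell, at a median of -2.43. Of 9 inhibitory receptor genes 4 rose, and Cd244a and Cd160 fell by 2.56 and 0.53.

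The remaining lists split or did not move. Of 12 granule genes none passed, with Prf1 at -0.28 and Nkg7 at 0.08. Of 12 naive and central memory genes 2 fell, Klf2 and S1pr1. Of 17 transcription factors, Eomes, Tox, Nr4a2 and Batf rose and Zeb2, Klf2 and Tbx21 fell. Of 4 serpins, Serpinb6a and Serpina3g rose by 0.59 and 0.49, while Serpinb6b and Serpinb9, the inhibitor of granzyme B, fell by 0.86 and 0.67. Ccl3 rose by 0.69, and Ccl5 and Ifng fell by 0.56 and 0.40. Of 11 residency genes Xcl1 rose by 0.46 and Itgae fell by 1.60. Without the S1pr5/Cx3cr1 cluster the calls were 47 higher and 72 lower, where 8 of the 10 largest rises still passed (Eomes 1.41, Tox 1.07), 3 of the 10 largest falls did, and S1pr5, Cx3cr1 and Klrg1 were too low to test.

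Across 53 sums of CD8 clusters by pool, each centred within its pool, genes with a pattern most like Gzmk among 2815 genes were Fam129a (Pearson r = 0.959), S100a11 (0.957), Il10ra (0.956), Txn1 (0.953), Gapdh (0.946), Cdk6 (0.944) and Gimap7 (0.942). The most opposed were Foxp1 (-0.954), Fam241a, Pik3ip1 and Lef1 (-0.943). Gzmb, at 0.854, followed Gzmk more closely over these clusters than Gzma, at 0.608. The sums share clusters, pools and naive-like cells, so these values are a description and carry no p.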

How the data were processed

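Brain T cells of 6 pools were read with 10x 5′ gene expression and T cell receptor libraries. Reads were processed with Cell Ranger 6.0.1, per the submitters' processing notes, where the builds GRCm38 and mm10 are also listed. The deposited matrix joins the 6 pools and holds counts, the UMIs per gene and barcode made by the authors. One other deposited column was used, a text column with the pool that the authors gave for each receptor contig, which mapped every barcode suffix to a pool.

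Barcodes were kept at 500 or more genes and no more than 10% mitochondrial UMIs. Scrublet's automatic threshold marked 0.0643% to 1.08% of barcodes, so the highest scores were removed up to 0.8% per 1000 barcodes (6 to 325 per pool). Cells were clustered in scanpy 1.11.5 (Leiden, leidenalg 0.10.2, resolution 1.0, 2000 variable genes without granzymes and receptor segments, 30 principal components, 15 neighbours). A cluster was named when at least 3 markers of a lineage were each in at least 50% of its cells and the lead markers of other lineages in under 20%, and CD8 clusters with 5 of 6 naive markers were called naive-like. UMIs were summed per pool and class (3832060 to 25993316 for CD8, 1002723 to 5499111 for CD4, 280911 to 1622735 for γδ T cells) and compared by the quasi-likelihood test of edgeR 4.0.16 (R 4.3.3), after filterByExpr and TMM scaling, with a threshold of 0.05 on the Benjamini-Hochberg p. Levels are CPM, a gene's UMIs per 1000000 UMIs of the sum. The biological coefficient of variation was 10.6% to 12.6% in the amyloid and tau fits and 4.19% to 10.3% in comparisons within pools. Amyloid was fitted with tau, with 3 residual degrees of freedom. Comparisons within pools used pool as a block.

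Same-numbered WT and 5XFAD pools deviated together (r = 0.438 over 2795 genes), and the labels put both second pools in a run of their own, so a fit with the run as block stands beside results whose call it changes. Shares and granzyme detection were read after random thinning to 2000 UMIs per cell. Shares were compared by exact permutation of pools and log2 odds ratios (0.5 cells added to each count) by exact sign flips. Intervals (95%) cover counting error only. Named genes were the 10 largest rises and 10 largest falls that passed with the same direction in 6 of 6 pools at 50 CPM or more on average, the listed genes, and for likeness the 8 highest and 4 lowest correlations of log2(CPM + 10). On simulated counts for the amyloid comparison in non-naive CD8 T cells, 39% of changes of 0.5 and 99% of changes of 1.0 (log2) were recovered over 9077 genes, with 6 false calls. Some of these genes are not reported here. The gene, the lists and the tests were chosen with earlier results of these data known. Alternatives were DESeq2 1.42.0, its size factors, no gene filter, the block, each pool left out, doublets kept, granzymes kept in the clustering, classes from marker UMIs, other depths, an expanded clone of 3 or more cells, and WT-1 without shared receptors. Leaving out the Gzmm/Pde2a or the S1pr5/Cx3cr1 cluster, leaving out naive-like CD4 T cells, adding the Cd4 granzyme cluster, clones of 1 cell, a common cluster makeup and the block without WT-1 were added after seeing the data.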

Additional observations from a re-analysis of the deposited data

How the results depend on the processing

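Of 750 values recomputed, 698 kept their direction and side of the threshold, 16 passed where the value reported did not, 23 no longer passed, 5 moved and 8 changed sign. For amyloid in CD8 T cells, edgeR's quasi-likelihood test passed with no gene filter (0.62, adjusted p = 2.6e-07), with the replicate block (0.60), with the block and without WT-1 (0.62, adjusted p = 0.0440) and without shared WT-1 receptors (0.73), DESeq2 passed too (0.61, adjusted p = 0.000479), and leaving out each pool gave 0.54 to 0.70, passing without 5XFAD-2 (0.70, adjusted p = 0.0183). For amyloid in non-naive CD8 T cells, it passed with no gene filter (0.45, adjusted p = 0.00045), with the replicate block (0.43), with the block and without WT-1 (0.42, adjusted p = 0.00987) and without shared WT-1 receptors (0.52), DESeq2 gave 0.44, and leaving out each pool gave 0.40 to 0.47, passing without WT-1 (0.46, adjusted p = 0.0370). The block and the removal of shared WT-1 receptors changed no other call on Gzmk, and in CD4 T cells the block left the adjusted p at 0.700. Effects by clone size did not pass in edgeR for 2 to 4, 5 to 19 and 20 or more cells with classes from marker UMIs (0.17, 0.35 and 0.37), nor for the smaller sizes without the Gzmm/Pde2a cluster (0.18 and 0.29). The expansion effect in CD4 T cells did not pass without naive-like cells (0.33). The amyloid by expansion interaction ran from -0.23 to 0.063 with each pool left out, and was 0.057 with classes from marker UMIs and 0.032 without the Gzmm/Pde2a cluster. Genes called in Gzmk-detected cells were 609 by DESeq2 and 416 without the Gzmm/Pde2a cluster, and 955 to 1186 with each pool left out. For Gzmk alone against Gzma or Gzmb alone they were 230 by DESeq2, 119 without the S1pr5/Cx3cr1 cluster and 287 to 425 with each pool left out, the fewest without WT-2. Gzmk with Gzma was 1.13 without the S1pr5/Cx3cr1 cluster and -0.041 without the Gzmm/Pde2a cluster, 0.064 at 1000 UMIs, 0.882 at 4000 and 0.123 counting cells with 2 or more UMIs, and Gzmk with Gzmb was 0.796 and -0.054 there, 0.207 at 1000 UMIs and 0.973 at 4000. Gzma with Gzmb ran from 2.68 to 3.06 with each pool left out. Pde2a in Gzmk-detected cells changed sign without the Gzmm/Pde2a cluster (0.30). The share difference in CD8 T cells was 16.5 points at 4000 UMIs (exact permutation p = 0.2). In γδ T cells Gzmk reached the filter in 5 alternatives, at -1.70 to 1.97 and with none passing in edgeR. The causes were not tested. The 3 against 3 pools and the 3 residual degrees of freedom limit every amyloid and tau comparison, and depth limits Gzmk in γδ and naive-like T cells.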
